A study of Homo sapiens with 20 samples.

Results

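The genes described here are 42 genes of DNA replication and repair, out of 19617 genes counted in SLAM-seq libraries of the multiple myeloma line MM1.S. They were taken as a list of names by role, not by a measured value, and fall into 4 role groups: 16 licensing and helicase genes, 15 genes of polymerases and the replication fork, 5 genes of nucleotide supply, and 6 genes of repair, checkpoint and methylation maintenance. Each gene was read on 1 transcript, the one with the most reads over all libraries, and all 42 passed the filter on low counts in both measures used below. MM1.S cells of wild-type genotype, an established cell line, received 10 nM dCBP-30, a degrader of the acetyltransferases CBP and p300, or the vehicle DMSO for 2, 6 or 24 h. Every time point had 3 dCBP-30 and 3 DMSO libraries, each labelled with 4-thiouridine (4sU) during the last 1 h, and another 2 libraries had no 4sU. After alkylation 4sU is sequenced as C where the genome has T. A read carrying that change, called a T>C read, comes largely from RNA of the labelling hour, while total reads hold older RNA as well.

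DNA replication starts at origins that ORC, CDC6 and CDT1 have loaded with the MCM helicase, a step called licensing. CDC45 and the GINS complex then turn MCM into the moving helicase, primase and the replicative polymerases copy the strands with the sliding clamp PCNA and its loader RFC, and FEN1 and LIG1 join the lagging strand. Ribonucleotide reductase (RRM1 and RRM2), TYMS, TK1 and DUT supply the nucleotides, and UHRF1 with DNMT1 copies DNA methylation behind the fork. Most of these genes are classic targets of the E2F factors and are transcribed mainly in cells about to enter or passing through S phase.

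The libraries held 12440700 to 18729086 reads on genes. T>C reads were 6.00% to 8.62% of the reads in the 9 DMSO libraries, 4.71% to 6.86% under dCBP-30, and 0.794% and 0.809% without 4sU. Levels are given as RPM, which are reads scaled to a common library size (a library's total reads times its TMM factor, a number that sets most genes level between libraries). On this scale the median gene changed by 0.05, -0.27 and -0.69 (log2, dCBP-30 over DMSO, T>C reads) at 2, 6 and 24 h, and by 0.00, 0.02 and 0.05 in total reads, and the members' changes are read against these shifts. A gene was called lower or higher at an adjusted p under 0.05 with a change over 2-fold, by the quasi-likelihood test of edgeR, adjusted after Benjamini and Hochberg over all genes tested, in 1 fit over the 18 labelled libraries. Nothing in the labels says that the libraries of a group came from separate cultures, so p-values measure the spread between these libraries. All 9 plasma cell and myeloma markers looked at were present under DMSO, from 105 RPM for CD38 to 1605 RPM for MZB1 as group means, whereas EPCAM, LYZ and CD3D had no reads there. Of the other markers of other cell types, HBB had 7.55 to 8.49 RPM and CD3E 3.34 to 5.27 RPM as DMSO group means. The rest had at most 1.03 RPM (KRT8). Under dCBP-30 at 24 h the same 9 plasma cell and myeloma markers ranged from 4.25 RPM (TNFRSF17) to 185 RPM (SLAMF7). CD3E, a T cell marker, then had 12.9 RPM against 5.27 RPM, and HBB, an erythroid marker, 1.47 RPM against 8.48 RPM. The part of these in the results was not tested. TMM factors were 1.29 to 1.32 in the dCBP-30 libraries at 24 h and 0.893 to 0.934 in the DMSO libraries of that time. These are bulk samples, in which fewer cells in S phase and less RNA per cell cannot be told apart.

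Across the 42 genes, new RNA was called changed for 1 gene in the first hours and was lower for every gene by 24 h. At 2 h none was called lower in T>C reads and 1, UHRF1, was called higher, beside 7.14% lower and 1.66% higher of all 10086 genes tested. At 6 h none was called in either direction, beside 17.1% lower and 2.36% higher of all genes. At an unadjusted p under 0.05, 1 member was lower and 10 were higher at 2 h, beside 1323 lower and 844 higher of all 10086 genes. By that limit 8 members were lower and 2 higher at 6 h, beside 2755 lower and 628 higher of all genes. Among the members DESeq2 made the same number of calls as edgeR at both times. At 24 h all 42 were called lower and none higher, beside 31.2% lower and 2.17% higher. The median change of the 42 was 0.30, -0.09 and -3.21 (log2) at the 3 time points. At 24 h the 4 role groups had medians of -3.37 for licensing and helicase, -3.20 for polymerases and fork, -2.62 for nucleotide supply and -2.55 for repair, checkpoint and methylation maintenance. Every member lay below the median gene at 24 h, and 36 of the 42 lay among the lowest 10 percent of all genes, whose limit was -2.345.

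**Figure D1:**
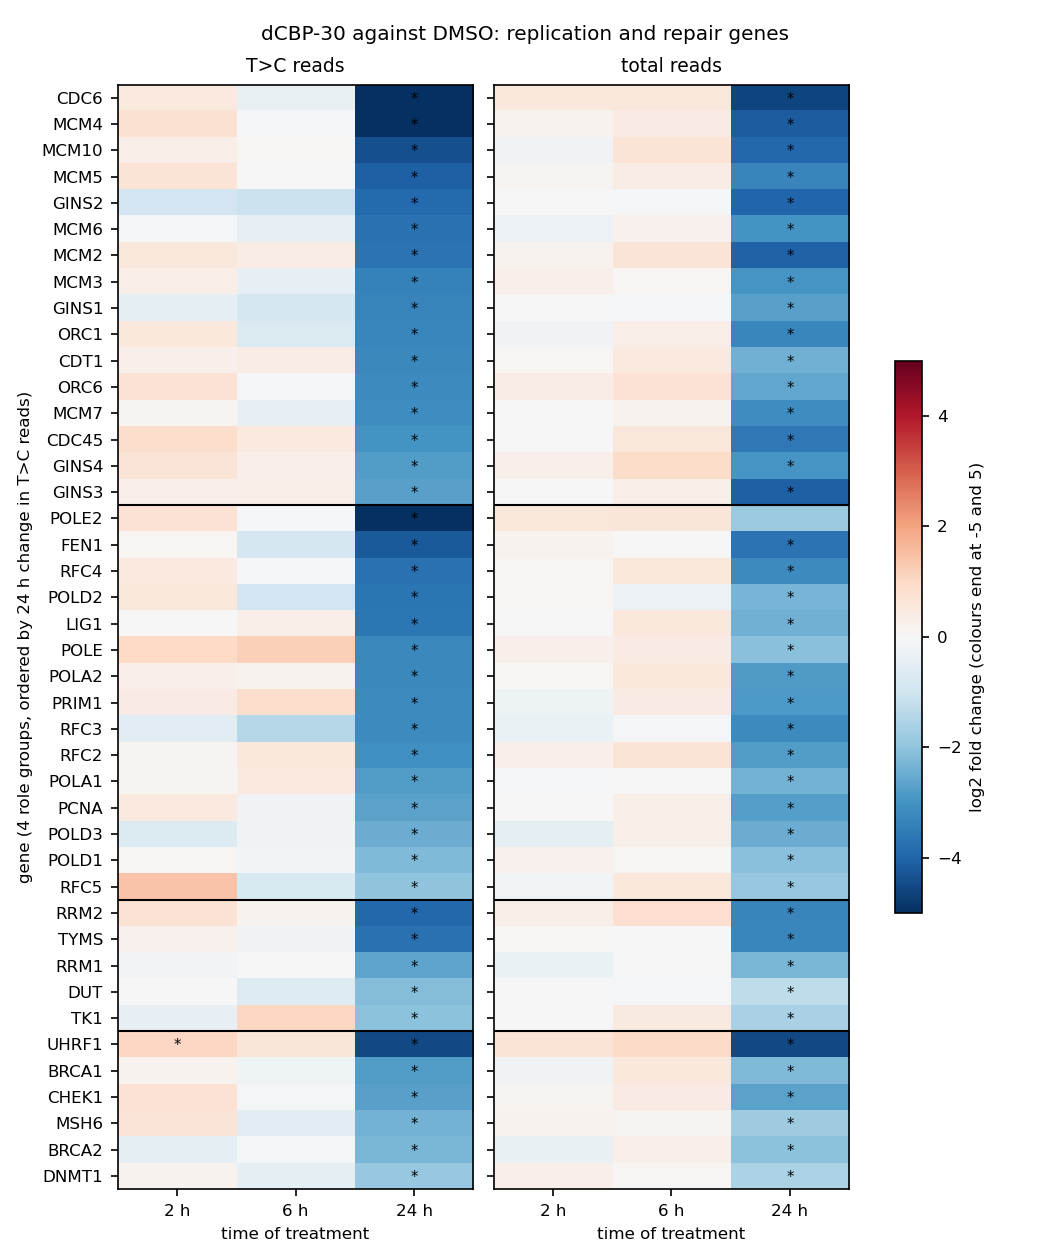
Log2 fold change of dCBP-30 over DMSO in T>C reads (left) and total reads (right) for the 42 genes (rows, split by lines into the 4 role groups) at 2, 6 and 24 h (columns). Stars mark calls at an adjusted p under 0.05 and over 2-fold. The 24 h columns are blue for all 42 genes, with a star for 42 in T>C reads and 41 in total reads, while UHRF1 at 2 h has the single star outside them.

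The share of each library that the 42 genes took was computed without any factor between libraries. In total reads they made up 0.611% to 0.674% of the 9 DMSO libraries. The dCBP-30 libraries gave 0.714%, 0.738% and 0.739% after 2 h and 1.04%, 1.03% and 1.00% after 6 h. After 24 h they gave 0.160%, 0.165% and 0.162%. All dCBP-30 libraries at 2 and 6 h thus lay above every DMSO library, and those at 24 h lay below. Among T>C reads the 42 genes took 0.712% to 0.777% under DMSO, 1.22% in each of the 3 dCBP-30 libraries at 2 h, 1.12% to 1.20% at 6 h and 0.127% to 0.157% at 24 h. Such a share depends on the reads of all other genes too. At 6 h T>C reads were 4.71% to 5.28% of all reads under dCBP-30 and 6.24% to 6.59% under DMSO, and the members' median change in T>C level was -0.09 (log2). RRM2, the member with the highest T>C level, had means of 233 RPM under dCBP-30 and 141 RPM under DMSO at 2 h. The 2 libraries without 4sU gave 0.642% and 0.624% of total reads, close to the DMSO libraries.

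**Figure D2:**
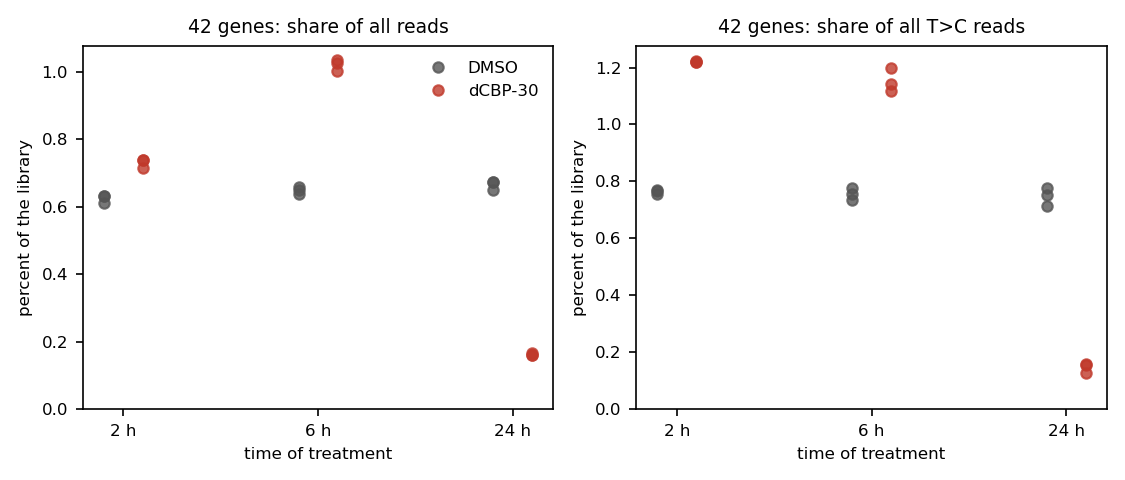
Percent of all reads (left) and of all T>C reads (right) of each library that fell on the 42 genes, by time of treatment. Each point is 1 library, DMSO in grey and dCBP-30 in red. The dCBP-30 points lie above the DMSO points at 2 and 6 h and far below them at 24 h.

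Total reads of the members were also lower at 24 h, but tended to lie above DMSO at 6 h. At 2 h no member was called in either direction in total reads, beside 1.25% lower and 0.464% higher of all 12272 genes tested, and the members' median was 0.04. At 6 h again none was called, beside 8.67% lower and 7.47% higher, yet the median was 0.40. At that time 36 of 42 members had a change above 0, where 5959 of all 12272 genes lay below 0. At an unadjusted p under 0.05, 1 member was lower and 4 were higher at 2 h, beside 1003 lower and 999 higher of all genes. By that limit 1 member was lower and 20 were higher at 6 h, beside 3074 and 2851 of all genes. DESeq2 called no member at either time. By the adjusted p alone, without the 2-fold limit, 18 members were higher at 6 h (18.8% of all genes were), among them 9 of 16 licensing and helicase genes: MCM2, MCM4, MCM5, MCM10, CDC6, CDT1, ORC6, CDC45 and GINS4. The others were RFC2, RFC4, RFC5, POLA2, LIG1, RRM2, TK1, BRCA1 and UHRF1, and only POLD2 was lower by that rule (log2 fold change -0.31, adjusted p = 0.0219 by the same edgeR test). At 6 h the 3 dCBP-30 libraries lay above the 3 DMSO libraries in total reads for 22 of the 42 and below for 1, beside 24.16% and 25.35% of all genes. At 24 h 41 of 42 were called lower and none higher, beside 16.1% lower and 15% higher, with a median of -2.82. Only POLE2 missed the call in total reads at 24 h, at -1.84 (adjusted p = 0.0803 by edgeR), and it had few reads. Without TMM factors the total reads of all genes split into 1061 lower and 3689 higher at 24 h in place of 1972 and 1841, and 40 members, all but POLE2 and DUT, were still called lower.

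**Figure D3:**
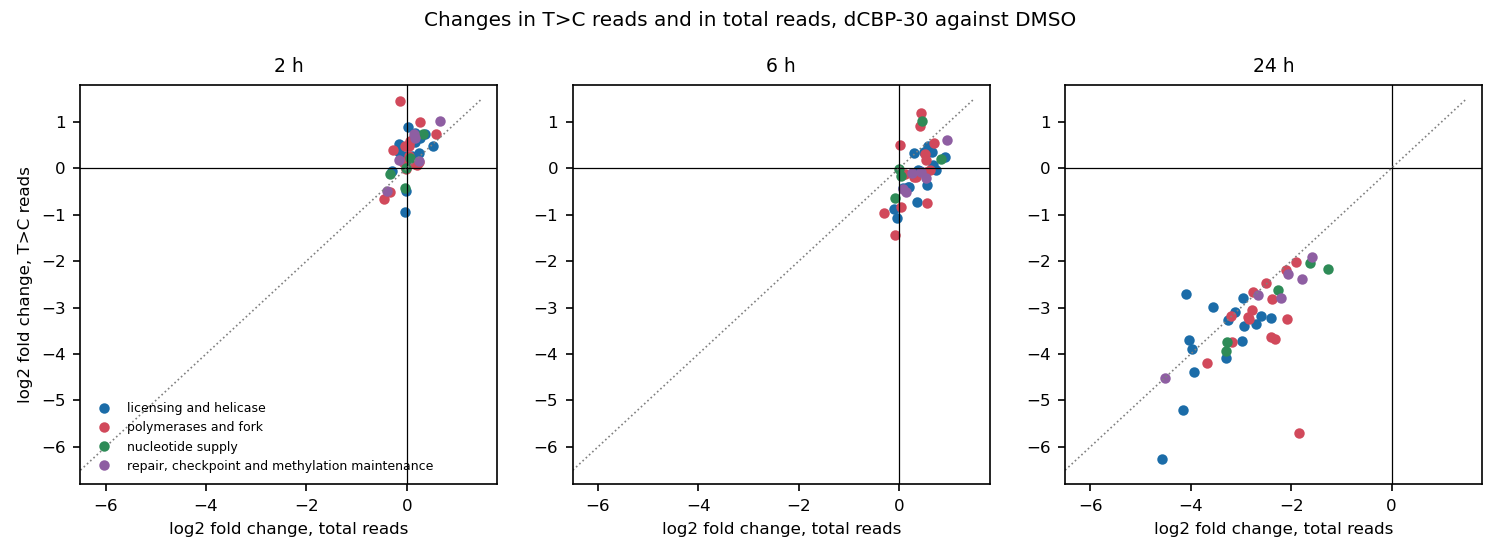
Log2 fold change in T>C reads (vertical axis) against that in total reads (horizontal axis) for the 42 genes at 2, 6 and 24 h, coloured by role group. The dotted line marks equal change. At 6 h most genes lie right of 0 in total reads with T>C changes on both sides of 0, and at 24 h all lie below and left of 0.

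The difference between the time points was tested itself. The change in T>C reads was lower at 24 h than at 2 h for 39 of 42 members (21.6% of all genes), with a median difference of -3.50, and RFC3, POLD3 and TK1 were those not called. It was lower at 24 h than at 6 h for 36 (8.5% of all genes), leaving out RFC3, RFC5, POLD1, POLD3, POLE2 and CHEK1. Between 6 and 2 h the change was lower for 2 members (6.63% of all genes), POLD2 at -1.54 and MSH6 at -1.16, and neither was called when libraries were scaled by their T>C reads, scaled without TMM factors, or read as sums over transcripts, and leaving out replicate 1 of dCBP-30 at 2 h or at 6 h also left 0. These contrasts share libraries. Within the vehicle alone, between DMSO at 24 h and DMSO at 2 h no member was lower in T>C reads (0.00991% of all genes) and 2 were higher (2.53%), namely MCM5 at 1.11 and POLD2 at 1.12, where the median of all genes was 0.49. Neither was called when libraries were scaled by T>C reads, when reads were summed over transcripts, or without replicate 3 of DMSO at 24 h.

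Labelling itself differed at 24 h. Conversions per T>C read, summed over the 42 genes, were 1.79, 1.71 and 1.93 in the dCBP-30 libraries against 2.69, 2.58 and 2.54 under DMSO, and over all genes 1.43 to 1.51 against 2.46 to 2.51. At 2 and 6 h the members' values were 2.52 to 2.64 under dCBP-30 and 2.29 to 2.46 under DMSO. The part of this in the fall of T>C reads was not tested. Of the members' reads, 9.10%, 9.39% and 9.45% were T>C reads under DMSO at 24 h and 6.24%, 5.58% and 5.38% under dCBP-30, against 0.835% and 0.866% without 4sU. For 41 of 42 members, all but POLE2, the share under dCBP-30 at 24 h was above that without 4sU.

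Sequences near the transcription starts are shown because the 42 genes moved together at 24 h. Promoters of 300 bases (250 before to 50 after the start, RefSeq, GRCh38.p14) were at hand for 38 of the 42, without MCM4, MCM5, GINS4 and POLD3. Where a gene had several, only the first listed was used, which left 27305 of 35116 promoters. An E2F-type motif (TTTCCCGC, TTTGGCGC, TTTCGCGC or TTTGCCGC, on either strand, overlaps counted once per promoter) was in 20 of the 38, 52.6%, and in 3.33% of all 27305 promoters of the same length. It was in 9 of 13 licensing and helicase promoters, 7 of 14 of polymerases and fork, 1 of 5 of nucleotide supply and 3 of 6 of repair, checkpoint and methylation maintenance. In the lists of other genes described below it was in 3 of 12 licensing, 2 of 21 polymerase and fork and 1 of 10 nucleotide supply promoters. It was also in 7 of 28 of recombination, crosslink and mismatch repair, 2 of 25 of end joining and excision repair and 5 of 11 of the E2F and RB family. The letters CCAAT, on either strand, were in 21 of 38 (55.3%) against 35.7% of all promoters, and in 36.4% (E2F and RB family) to 66.7% (other polymerase and fork) of those lists. The CHR letters TTTGAA or TTCGAA were in 2 of 38 (5.26%), MCM6 and RRM1, against 16.6%. Windows of 30 bases around a match are given for genes described below, with the motif in capitals and the strand of the gene read 5′ to 3′. They lie at chr3:127598402-127598431 (MCM2, plus strand), chr7:100101388-100101417 (MCM7, minus strand), chr17:40287875-40287904 (CDC6, plus strand), chr20:5126663-5126692 (PCNA, minus strand), chr2:47783137-47783166 (MSH6, plus strand), chr19:4909476-4909505 (UHRF1, plus strand) and chr19:10194937-10194966 (DNMT1, minus strand).
MCM2: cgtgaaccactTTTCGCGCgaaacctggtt
MCM7: ggggggcgacgTTTCGCGCcaatttcggtt
CDC6: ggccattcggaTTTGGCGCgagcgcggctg
PCNA: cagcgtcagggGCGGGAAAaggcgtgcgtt
MSH6: ctccccccagaTTTCCCGCcagcaggagcc
UHRF1: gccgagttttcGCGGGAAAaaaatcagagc
DNMT1: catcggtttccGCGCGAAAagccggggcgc

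In PCNA, UHRF1 and DNMT1 the motif stands on the other strand, so its reverse complement is printed. MCM6 had 4 matches in its promoter, in overlapping pairs. MCM2 had 2 that overlap, and only the first is in capitals above. MCM3 and MCM7 had 2 each, which lie apart. The 20 members with a match and the 18 without one had T>C reads at 24 h with median changes of -3.29 and -3.02 (log2) and ranges of -6.27 to -1.91 and -4.39 to -2.01. Those with a match included CDC6 (-6.27), POLE2 (-5.69) and UHRF1 (-4.51), and also DNMT1 (-1.91), with the smallest fall of the 42. Those without one included MCM10 (-4.39), FEN1 (-4.19) and RRM2 (-3.93), and also RFC5 (-2.01). Whether a match bears on the fall was not tested. A match describes letters in a window and no bound factor.

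The licensing and helicase genes had the lowest group median at 24 h, and all 16 were called lower in both measures, from -6.27 (CDC6) to -2.71 (GINS3) in T>C reads. MCM2, a subunit of the replicative helicase (ENSG00000073111, counted on its 3′ UTR, chromosome 3, 127621771 to 127622436, hg38), had T>C levels of 20.1, 26.9 and 38.1 RPM under DMSO and 42.7, 42.4 and 40.7 RPM under dCBP-30 at 2 h. At 6 h its levels were 28.0, 27.8 and 27.5 RPM against 30.8, 33.0 and 43.1 RPM. The groups did not overlap at either time, with dCBP-30 above DMSO, and MCM2 passed the adjusted p at 2 h (log2 fold change 0.56, SE 0.18, adjusted p = 0.0347 by edgeR) but not at 6 h (0.36, adjusted p = 0.162). The pass at 2 h was lost with reads summed over transcripts (0.57, adjusted p = 0.154 by edgeR) and without any 1 of the 3 dCBP-30 libraries or replicate 1 or 2 of DMSO at 2 h, the change running from 0.37 without DMSO replicate 1 (adjusted p = 0.319) to 0.83 without DMSO replicate 3. By the adjusted p alone 4 members were higher at 2 h (2.45% of all genes), MCM2, MCM4, RRM2 and UHRF1, of which MCM4 also lost the pass with summed reads (0.61, adjusted p = 0.147 by edgeR). At 24 h MCM2 fell from 40.9, 38.6 and 46.5 RPM to 3.72, 2.80 and 3.11 RPM, which is 13.1-fold (log2 fold change -3.71, SE 0.20, adjusted p = 4.3e-22 by edgeR). In total reads it stood at 430, 372 and 386 RPM under DMSO and 584, 613 and 662 RPM under dCBP-30 at 6 h, without overlap, and then at 475, 445 and 459 RPM against 29.5, 24.9 and 29.6 RPM at 24 h, 16.4-fold lower.

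MCM4, another helicase subunit (ENSG00000104738, chromosome 8, 47976776 to 47978160), had T>C levels of 27.5, 20.3 and 22 RPM under DMSO and 42.1, 39.4 and 35.6 RPM under dCBP-30 at 2 h. All dCBP-30 libraries were higher, by 0.75 on the log2 scale (SE 0.18, adjusted p = 0.0025 by edgeR), short of 2-fold. At 6 h the levels overlapped, 21.1, 26.1 and 22.4 RPM against 19.6, 19.8 and 27.4 RPM, with a change of -0.06 that turned to 0.24 or 0.26 under the other scalings. At 24 h 36.3, 39.2 and 40.7 RPM under DMSO stood against 1.26, 1.04 and 0.805 RPM. That 37.2-fold fall (log2 fold change -5.22, SE 0.24, adjusted p = 1.2e-26 by edgeR) went with a 17.9-fold fall in total reads, to 24.1, 18.2 and 19.5 RPM.

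MCM7, also of the helicase (ENSG00000166508, chromosome 7, 100092728 to 100093357, in 2 exons), passed no test before 24 h. Its T>C levels were 28.1, 29.4 and 28.2 RPM under DMSO and 32.4, 30.6 and 31.9 RPM under dCBP-30 at 2 h, and 25.0, 23.7 and 32.1 RPM against 21.9, 19.1 and 20.3 RPM at 6 h (log2 fold changes 0.15 and -0.40, adjusted p = 0.709 and 0.1 by edgeR). The libraries did not overlap at either time, dCBP-30 lying above DMSO at 2 h and below it at 6 h. At 24 h 33.7, 33.7 and 36.8 RPM fell to 4.98, 3.46 and 3.81 RPM, 8.49-fold (log2 fold change -3.09, SE 0.19, adjusted p = 6.0e-20 by edgeR).

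CDC6, the ATPase that loads the helicase together with ORC (ENSG00000094804, chromosome 17, 40301999 to 40304657), had the largest fall. Its T>C levels were 4.77, 10.7 and 6.35 RPM under DMSO and 9.32, 11 and 10.3 RPM under dCBP-30 at 2 h, which overlapped, and 7.86, 8.58 and 8.54 RPM against 6.77, 5.44 and 7.23 RPM at 6 h, which did not. Neither change passed the test (0.49 and -0.36 log2, adjusted p = 0.378 and 0.442 by edgeR). At 24 h 7.19, 9.06 and 10.7 RPM under DMSO stood against 0, 0.220 and 0.107 RPM, or 411 T>C reads in all against 6. The log2 fold change was -6.27 (SE 0.65, adjusted p = 4.7e-17 by edgeR), and -7.17 without replicate 2 of dCBP-30. In total reads CDC6 fell from 30.3, 35.5 and 33.4 RPM to 1.20, 2.36 and 0.590 RPM, while at 6 h it had been higher under dCBP-30, at 48.4, 47.9 and 43.0 RPM against 27.7, 32.6 and 34.9 RPM (log2 fold change 0.55, adjusted p = 0.0262).

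The other licensing and helicase genes at 24 h (T>C reads, log2) were MCM10 at -4.39, MCM5 at -4.08, GINS2 at -3.90, MCM6 at -3.72, MCM3 at -3.39, GINS1 at -3.34, ORC1 at -3.26, CDT1 at -3.22, ORC6 at -3.17, CDC45 at -2.98, GINS4 at -2.80 and GINS3 at -2.71. Their adjusted p ranged up to 0.00011 (GINS3), by the same edgeR test. Total reads fell more than T>C reads for GINS3 (-4.09) and CDC45 (-3.55), among others, and less for MCM6 (-2.97) and CDT1 (-2.40). The 23 T>C reads of GINS3 in dCBP-30 libraries at 24 h were 32.9% of its reads, the highest such share of the 42. GINS2, GINS1 and MCM6 lay below 0 at both early times in T>C reads, with none past the test, and GINS2 the furthest at -0.95 and -1.08 beside total reads at -0.03 and -0.05. The counted region of GINS2 overlaps GSE1 on the opposite strand. In total reads at 6 h the gap within the group was widest for GINS4, at 43.2 ± 1.43 RPM under DMSO and 80.9 ± 10.8 RPM under dCBP-30 (SD, n = 3; log2 fold change 0.91, adjusted p = 6.1e-06), short of 2-fold.

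All 15 genes of polymerases and fork were called lower in T>C reads at 24 h. PCNA, the sliding clamp (ENSG00000132646, chromosome 20, 5114953 to 5115285), had T>C levels of 25.0, 18.3 and 16.3 RPM under DMSO and 27.2, 28.4 and 27.7 RPM under dCBP-30 at 2 h, all 3 above DMSO (log2 fold change 0.48, adjusted p = 0.174 by edgeR). At 6 h 14.3, 16.4 and 23.2 RPM overlapped with 19.0, 17.1 and 11.3 RPM, and the change of -0.18 turned to 0.14 under either other scaling. At 24 h 17.6, 20.6 and 26.3 RPM fell to 3.12, 4.50 and 2.57 RPM, 6.31-fold (log2 fold change -2.66, SE 0.24, adjusted p = 5.3e-14 by edgeR). The 24 h fall in total reads was of like size, 6.73-fold, from 132, 195 and 186 RPM to 23.6, 29.7 and 23.0 RPM.

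FEN1, the flap endonuclease of lagging-strand maturation (ENSG00000168496, chromosome 11, 61796502 to 61797238), was called lower at 24 h and passed the adjusted p at 6 h. The 2 h T>C levels of 33.1, 33.4 and 36.3 RPM under DMSO and 33.6, 37.2 and 38.2 RPM under dCBP-30 overlapped. At 6 h 37.6, 41.5 and 40.1 RPM stood against 23.5, 26.2 and 17.2 RPM, a gap without overlap that passed the adjusted p (log2 fold change -0.83, SE 0.20, adjusted p = 0.0013 by edgeR) and fell short of 2-fold; the total reads at 6 h, 490, 565 and 551 RPM against 609, 574 and 451 RPM, overlapped. By the adjusted p alone 3 members were lower at 6 h (21.3% of all genes), FEN1, POLD2 and DUT. All 3 lost the pass when scaled by T>C reads, at -0.51, -0.66 and -0.32 (adjusted p = 0.067, 0.17 and 0.3 by edgeR), and also without TMM factors. At 24 h FEN1 fell from 44, 44.8 and 39.5 RPM to 4.21, 1.26 and 1.56 RPM, 18.2-fold (log2 fold change -4.19, SE 0.23, adjusted p = 9.7e-22 by edgeR). Replicate 1 of dCBP-30 was the high one, and without it the change was -4.92.

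POLD2, a subunit of polymerase delta (ENSG00000106628, chromosome 7, 44114706 to 44118838, over 8 exons), was lower at 24 h, with a change at 6 h that depended on single libraries. Its T>C levels at 2 h were 3.31, 3.6 and 6.57 RPM under DMSO and 7.42, 6.86 and 5.88 RPM under dCBP-30, overlapping. At 6 h they were 7.08, 5.97 and 6.31 RPM against 2.63, 1.89 and 5.45 RPM, all 3 below DMSO (log2 fold change -0.96, SE 0.34, adjusted p = 0.033 by edgeR). Without replicate 3 of dCBP-30 at 6 h the change was -1.51, and without replicate 1 or 2 it was -0.82 or -0.67 (adjusted p = 0.134 and 0.22), while leaving out any DMSO replicate of that time also lost the pass, with -0.89 to -1.01 and an adjusted p of 0.0502 to 0.096. The 24 h levels of 8.55, 11.6 and 9.21 RPM under DMSO and 0.657, 0.659 and 0.966 RPM under dCBP-30 gave a 12.7-fold fall (log2 fold change -3.67, SE 0.39, adjusted p = 1.2e-11). POLD2 carried 19.2 multimapping reads per 100 counted reads, so its counts are less certain than those of most members.

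The other members of this group at 24 h (T>C reads, log2) were RFC4 at -3.74, LIG1 at -3.63, POLE and POLA2 at -3.24, PRIM1 at -3.20, RFC3 at -3.18, RFC2 at -3.05, POLA1 at -2.81, POLD3 at -2.48, POLD1 at -2.19 and RFC5 at -2.01. RFC2 to RFC5 load the clamp, POLA1, POLA2 and PRIM1 prime the strands, POLE and POLD1 hold the catalytic sites of the leading and lagging strand polymerases, and LIG1 seals the nicks. POLE2, a subunit of polymerase epsilon, had 12, 5 and 2 T>C reads under DMSO at 24 h and 0 in each dCBP-30 library, at least 7.59-fold lower against a floor of 3 reads over the group, with an adjusted p of 0.0204 by edgeR. In this group RFC3, RFC5, POLD3, POLE2 and PRIM1 were each lost or not tested under at least 1 other setting. Leaving out single libraries lost RFC5 (replicates 2 and 3 of dCBP-30 and 1 and 2 of DMSO at 24 h, -1.61, -1.89, -1.78 and -1.86, the highest adjusted p being 0.0977), RFC3 (replicates 2 and 3 of dCBP-30 at 24 h, -2.62 in both) and POLE2 (any dCBP-30 replicate or replicate 1 of DMSO at 24 h).

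Early values in this group ranged widely around DMSO. At 2 h RFC5 had 10, 16 and 16 T>C reads under DMSO and 38, 37 and 44 under dCBP-30 (log2 fold change 1.44, SE 0.65, adjusted p = 0.17 by edgeR), and at 6 h RFC3 lay at -1.44 and POLE at 1.19, none past the test. In total reads at 6 h RFC2 stood at 33.9 ± 6.98 RPM under DMSO and 54.7 ± 1.91 RPM under dCBP-30 (SD, n = 3; log2 fold change 0.69, adjusted p = 0.0023 by edgeR) and POLA2 at 71.0 ± 7.67 and 103 ± 9 RPM (0.53, adjusted p = 0.0016), both under 2-fold.

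All 5 nucleotide supply genes were called lower at 24 h in both measures. RRM2, the regulatory subunit of ribonucleotide reductase (ENSG00000171848, chromosome 2, 10129384 to 10131414), had T>C levels of 142, 150 and 130 RPM under DMSO and 219, 252 and 228 RPM under dCBP-30 at 2 h. The groups were far apart there (log2 fold change 0.73, SE 0.13, adjusted p = 3.2e-05 by edgeR), short of 2-fold. At 6 h 136, 138 and 137 RPM stood against 147, 163 and 158 RPM (0.19, adjusted p = 0.346), and the total reads at that time were 1135, 1159 and 1152 RPM against 2149, 2140 and 1851 RPM, a gap of 0.83 (log2, adjusted p = 8.0e-07). The 24 h T>C levels of 127, 167 and 133 RPM under DMSO and 9.41, 8.24 and 10.2 RPM under dCBP-30 gave a 15.3-fold fall (log2 fold change -3.93, SE 0.14, adjusted p = 5.7e-30). Total reads then were 930, 1120 and 1025 RPM against 94.0, 97.3 and 121 RPM. RRM2 was thus above DMSO without overlap at 2 and 6 h in both measures, and below it without overlap at 24 h.

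RRM1, the catalytic subunit of the same enzyme (ENSG00000167325, chromosome 11, 4106059 to 4138870, over 17 exons), moved only at 24 h. Its T>C levels were 33.6, 29.4 and 34.4 RPM under DMSO and 29.3, 25.6 and 34.4 RPM under dCBP-30 at 2 h, and 27.1, 25.2 and 25.6 RPM against 29.6, 22 and 25.9 RPM at 6 h. The groups overlapped at both times, and the 6 h change of -0.01 turned to 0.30 or 0.31 under the other scalings. At 24 h 26.8, 40.8 and 32.6 RPM fell to 4.71, 6.04 and 5.53 RPM, 6.15-fold (log2 fold change -2.62, SE 0.19, adjusted p = 4.5e-17 by edgeR).

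DUT, which removes dUTP (ENSG00000128951, chromosome 15, 48341426 to 48342395), had 2 h T>C levels of 22.9, 22.1 and 18.7 RPM under DMSO and 23.2, 22.2 and 18.7 RPM under dCBP-30. At 6 h 25.8, 18.4 and 22.6 RPM stood against 12.1, 16.9 and 13.7 RPM, without overlap (log2 fold change -0.64, SE 0.21, adjusted p = 0.0183 by edgeR). The pass was lost without replicate 1 or 3 of either group at 6 h (-0.52 to -0.63, adjusted p up to 0.114 by edgeR) and with summed reads (adjusted p = 0.0521). At 24 h 17.1, 27.9 and 25.7 RPM fell to 3.83, 6.65 and 5.10 RPM (log2 fold change -2.18, SE 0.22, adjusted p = 3.3e-12). Its total reads fell least of the 42, from 507, 550 and 526 RPM to 214, 231 and 215 RPM, 2.40-fold (log2 -1.26), and without TMM factors the fall was -0.74, short of 2-fold. Of the remaining 2, TYMS, thymidylate synthase, lay at -3.74 at 24 h in T>C reads and -3.27 in total reads, and its counted region overlaps ENOSF1 on the opposite strand. TK1, thymidine kinase, lay at -2.04 in T>C reads and -1.63 in total reads. At 6 h TK1 had 39, 55 and 31 T>C reads under DMSO and 134, 80 and 80 under dCBP-30 (log2 fold change 1.02, adjusted p = 0.0762), and it was called higher when scaled by T>C reads, scaled without TMM factors or fitted at 6 h alone.

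All 6 genes of repair, checkpoint and methylation maintenance were called lower at 24 h in both measures. UHRF1, which reads hemimethylated DNA and recruits DNMT1 (ENSG00000276043, chromosome 19, 4960801 to 4962154), had T>C levels of 13.9, 8.32 and 11.8 RPM under DMSO and 21.5, 22.2 and 25.3 RPM under dCBP-30 at 2 h. That was the single early call among the 42 (log2 fold change 1.02, SE 0.23, adjusted p = 0.001 by edgeR), and it fell under 2-fold without replicate 3 of dCBP-30 (0.94) or replicate 2 of DMSO (0.84) at 2 h. At 6 h 11.2, 8.58 and 8.14 RPM stood against 15.0, 12 and 15.3 RPM (0.60, adjusted p = 0.0551). Total reads were 77.8, 66.1 and 78.9 RPM under DMSO and 115, 119 and 120 RPM under dCBP-30 at 2 h, and 90.3, 70.8 and 75.8 RPM against 143, 141 and 175 RPM at 6 h. Both gaps in total reads were without overlap (log2 fold changes 0.67 and 0.96, adjusted p = 0.0099 and 2.0e-05). At 24 h T>C levels fell from 19.5, 16.6 and 20.2 RPM to 0.711, 1.26 and 0.483 RPM, 22.7-fold (log2 fold change -4.51, SE 0.30, adjusted p = 1.1e-19), and total reads fell 22.8-fold. UHRF1 carried 47.8 multimapping reads per 100 counted reads, the highest such number of the 42.

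MSH6, of mismatch repair (ENSG00000116062, chromosome 2, 47798634 to 47806953, over 7 exons, overlapping FBXO11 on the opposite strand), had T>C levels of 14.4, 12.8 and 14.0 RPM under DMSO and 27.6, 18.6 and 18.6 RPM under dCBP-30 at 2 h. All 3 were above DMSO there, while at 6 h the groups overlapped, at 11.2, 18.5 and 17.4 RPM against 8.68, 11.4 and 13.1 RPM. Neither change passed the test (0.65 and -0.51 log2, adjusted p = 0.0568 and 0.103 by edgeR). At 24 h 21.4, 20.1 and 24.2 RPM fell to 5.80, 3.13 and 3.7 RPM, 5.20-fold (log2 fold change -2.38, SE 0.24, adjusted p = 3.2e-12).

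DNMT1, the maintenance methyltransferase (ENSG00000130816, chromosome 19, 10133346 to 10180487, over 38 exons), had the smallest T>C fall of the 42. Its levels overlapped at 2 h (19.8, 18.1 and 24.0 RPM under DMSO, 19.1, 26.7 and 23.2 RPM under dCBP-30) and at 6 h (24.3, 23.8 and 33.2 RPM against 16.7, 17.9 and 25.1 RPM). At 24 h 43.9, 37.1 and 35.8 RPM fell to 11.1, 11.8 and 8.10 RPM, 3.77-fold (log2 fold change -1.91, SE 0.20, adjusted p = 7.8e-12 by edgeR). Total reads fell 3.02-fold, from 826, 745 and 689 RPM to 249, 262 and 238 RPM. BRCA1 and BRCA2, of homologous recombination, lay at -2.81 and -2.27 in T>C reads at 24 h and at -2.20 and -2.06 in total reads. CHEK1, the checkpoint kinase, lay at -2.72 and -2.66, and was the single member whose T>C libraries overlapped at 24 h (38, 50 and 5 reads under DMSO, 2, 1 and 13 under dCBP-30, adjusted p = 0.0031 by edgeR). Of the 8986 genes compared, 49.04% lay below DMSO without overlap at that time and 6.23% above. The counted region of CHEK1 overlaps ACRV1 on the opposite strand.

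**Figure D4:**
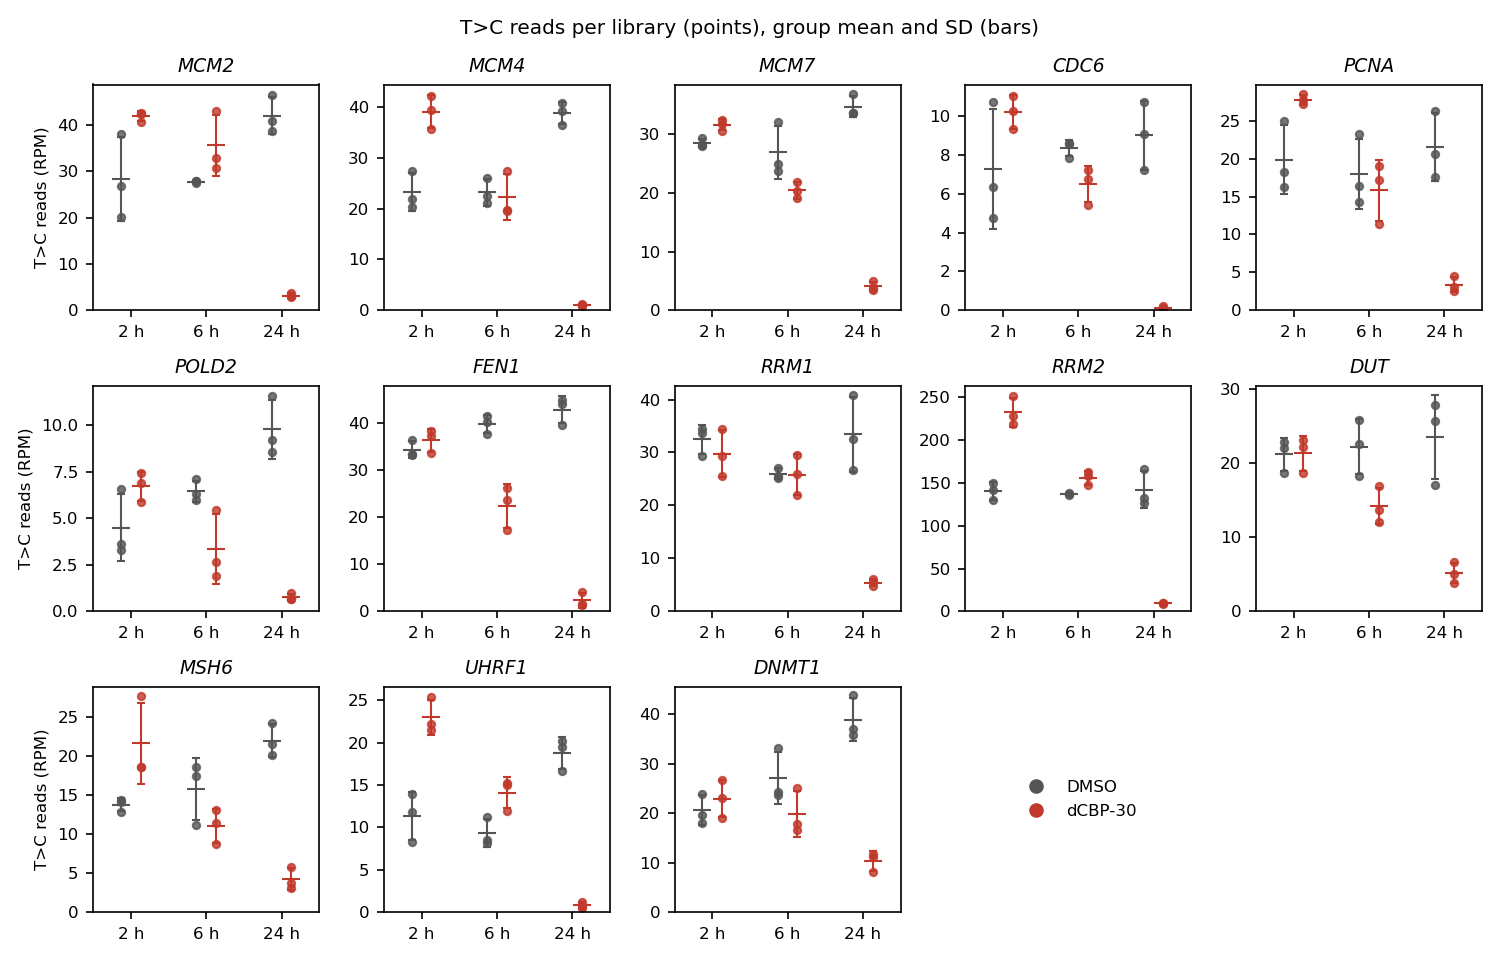
T>C level (RPM, total reads times the TMM factor) of the 13 genes given in every library, by time of treatment. Points are libraries, DMSO in grey and dCBP-30 in red, with the group mean and SD (n = 3). In all 13 genes the dCBP-30 points at 24 h lie below every DMSO point of that time. At 2 h those of MCM2, MCM4, MCM7, PCNA, RRM2, MSH6 and UHRF1 lie above. Over all members, T>C levels at 2 h lay above DMSO without overlap for 11 and below for 3. The shares of the 8986 genes compared were 11.92% above and 15.65% below. At 6 h the members' counts were 7 above and 7 below, beside 8.22% and 30.45% of those genes. At 24 h they were 0 above and 41 below, beside 6.23% and 49.04%.

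The members also differed in how much of their RNA was new. Over the 9 DMSO libraries the share of T>C reads among a gene's reads ran from 2.28% (TK1) to 25.8% (POLE2), with a median of 9.03%, and CDC6 (25.1%), BRCA2 (19.6%) and ORC6 (19.5%) stood near the top and POLD2 (2.69%), DUT (4.20%) and DNMT1 (4.21%) near the bottom. Across the 42 genes, which share libraries and are not replicates, this share had a Pearson correlation of -0.23 and a Spearman correlation of -0.25 with the log2 fold change in total reads at 24 h, given as a description. With the log2 fold change in T>C reads at 24 h, which draws on some of the same counts, the values were -0.46 and -0.25. The 24 h changes in T>C and total reads went together with r = 0.64 and rho = 0.67 over the 42 genes. T>C reads fell more than total reads for 32 of the 42, with a median gap of -0.42 (log2). Over all genes tested the median change at 24 h was -0.69 in T>C reads and 0.05 in total reads. A gap between the measures was thus not particular to the members.

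Other genes of the same processes were counted over lists written from general knowledge, in T>C reads at 24 h, where 31.2% of all genes were lower and the median gene lay at -0.69. The list of other licensing and origin-firing genes also held MCM8 and MCM9, which are not subunits of the MCM2 to MCM7 helicase. Of its 14 genes tested 9 were lower (median -2.48), led by MCM8 at -4.18 and ORC3 at -4.01. Of other polymerase and fork genes 17 of 26 were lower (median -2.25), led by TIPIN at -5.09 and PRIM2 at -4.98, and of other nucleotide supply genes 8 of 12 (median -1.67), led by NME1 at -3.76 and DCTPP1 at -2.89. In homologous recombination, interstrand crosslink and mismatch repair 26 of 33 were lower (median -2.38), led by XRCC3 at -7.21 and BLM at -4.51. In end joining and excision repair, which also act outside S phase, 12 of 27 were lower (median -1.06), led by UNG at -2.96 and PARP2 at -2.83. Some of these leading genes had few reads summed over all libraries, so their fold changes are less certain. These were ORC3 (1074 reads), PARP2 (2591), TIPIN (2985), PRIM2 (3098) and XRCC3 (3123). PRIM2 also carried 10.975 multimapping reads per 100 counted reads. No gene tested in these 5 lists was called higher in T>C reads at 24 h (2.17% of all genes were). None was called in either direction at 2 h, where 7.14% of all genes were lower and 1.66% higher. In total reads at 24 h 3 of 29 end joining and excision genes, 1 of 12 nucleotide supply genes and 1 of 33 recombination genes were called higher (15% of all genes), and 10, 7 and 23 were lower (16.1%). At 6 h in T>C reads 17.1% of all genes were lower and 2.36% higher. The end joining and excision list then had 7 of 27 lower and 1 higher (ERCC1), and the nucleotide supply list 3 of 12 lower. The polymerase and fork list had 2 of 26 lower, the recombination list 1 of 33 and the licensing list none of 14.

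Among the E2F and RB family genes, whose products are known to act on promoters of replication genes, 8 of 13 were called lower in T>C reads at 24 h (31.2% of all genes), and E2F2 was called at every time. E2F2, an activator E2F, had 40.4 ± 6.89 RPM under DMSO and 11 ± 2.47 RPM under dCBP-30 at 2 h (SD, n = 3; log2 fold change -1.87, adjusted p = 5.1e-07 by edgeR), 44.6 ± 0.981 against 6.34 ± 2.65 RPM at 6 h (-2.82, adjusted p = 6.0e-11) and 54.0 ± 2.81 against 1.77 ± 1.12 RPM at 24 h (-4.92, adjusted p = 4.1e-16). E2F3, also an activator, passed the adjusted p at 2 h (-0.87, adjusted p = 9.3e-05) and was called lower at 6 h (-1.74) and 24 h (-1.64). E2F1, another activator, lay at 0.11 and -0.41 at 2 and 6 h, neither past the test, and fell by 4.04 (log2) at 24 h, from 14.5 ± 3.85 to 0.875 ± 0.492 RPM (SD, n = 3). The repressors E2F7 and E2F8 lay at -0.33 and 0.09 at 2 h, without a call, and were lower at 24 h by -3.44 and -4.80. RBL1 (-2.90), TFDP1 (-2.08) and E2F6 (-1.01) were also lower at 24 h, whereas RB1 (0.33), RBL2 (-0.05) and E2F4 (-0.59) were not called at any time. E2F5 was called lower at 6 h (-3.24, on 6 T>C reads against 51) and TFDP2 higher at 6 h (2.08), with -1.23 and -0.32 at 24 h, not called.

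**Figure D5:**
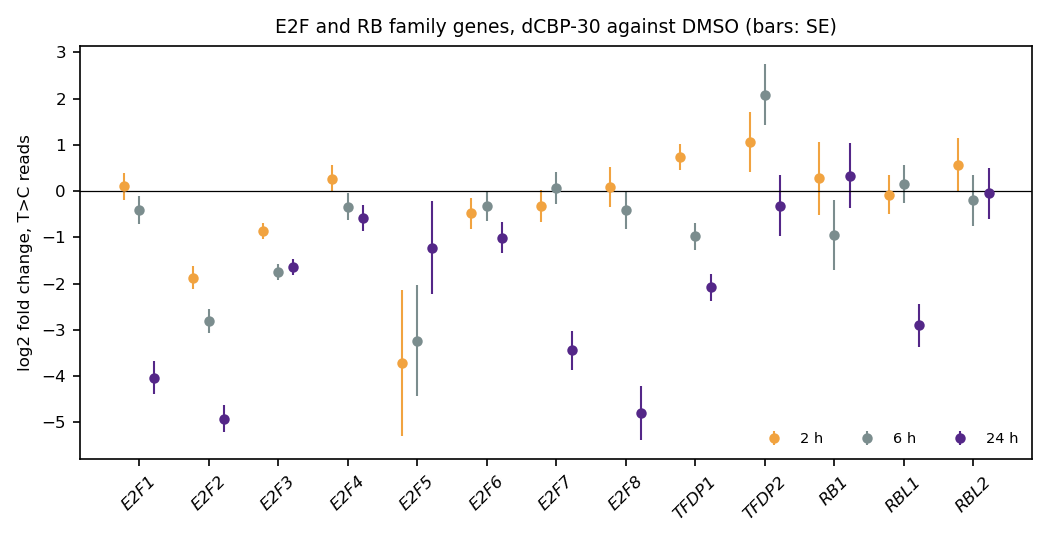
Log2 fold change in T>C reads (vertical axis) of the 13 E2F and RB family genes at 2, 6 and 24 h, with bars for the SE. E2F2, E2F3, E2F5 and E2F6 lie below 0 at all 3 times, while E2F1, E2F7 and E2F8 lie near 0 at 2 h and between -3.44 and -4.80 at 24 h.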

How the data were processed

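The authors trimmed reads with Trim Galore, ran Slamdunk at its default settings on 3′ UTRs of hg38, dropped multimapping and low-quality reads, and deposited raw counts of reads and T>C reads per transcript, neither normalized nor pooled. Labelled RNA of Drosophila cells was mixed into the samples, and how it entered the deposited values is not given in the sources used here. Some counted regions span several exons. Of 97466 transcript rows, 89088 (91.4%) matched GENCODE 44, and unmatched rows held at most 0.1987% of a library's reads. Each gene was read on its transcript with the most reads over all libraries.

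The 18 labelled libraries (12440700 to 18729086 reads) were fitted together without a replicate block in edgeR 4.0.16 (R 4.3.3, limma 3.58.1) with total reads times TMM factors as library sizes, also for T>C counts, after filterByExpr at a minimum count of 10. Calls needed an adjusted p under 0.05 and a change over 2-fold. Libraries of a group differed by a chi-square of 8.36 to 47.5 per degree of freedom, so none was a copy of another. Alternatives were scaling by T>C reads, no TMM factors, DESeq2 1.42.0, no low-count filter, subtraction of the background without 4sU, reads summed over transcripts, a replicate block, each time point alone, and each library left out. Steps were tested on simulated data. Python 3.11.15 was used for counting motifs and plots.

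Values in every library are given for the 3 members of each role group with the highest mean T>C level under DMSO, for members called in T>C reads at 2 or 6 h or called higher at any time, and for the largest and smallest change at 24 h among members whose DMSO libraries averaged 20 T>C reads or more. All tested E2F and RB family genes are named, and of each other list the 2 largest called changes at 24 h. TK1, RFC5, RFC2, POLA2, GINS4, CHEK1 and others given with counts or levels were chosen after their values were seen. The members, lists and tests were chosen with earlier results of these data known.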

Additional observations from a re-analysis of the deposited data

Results flagged for a closer look

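For the 13 genes given in every library, the change under dCBP-30 in T>C reads (log2) was compared between time points by an interaction term in edgeR, and the results past an adjusted p of 0.05 and 2-fold are listed here. The contrasts share libraries, and all values are differences of log2 fold changes.

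Among the helicase and loading genes, CDC6 was lower at 24 h by -6.75 than at 2 h and by -5.90 than at 6 h. For MCM4 the differences were -5.96 and -5.16, for MCM2 -4.27 and -4.06, and for MCM7 -3.23 and -2.69, in the same order.

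At the fork, FEN1 differed by -4.27 from 2 to 24 h and by -3.36 from 6 to 24 h, and PCNA by -3.14 and -2.48. POLD2 differed by -4.25 and -2.71, and also by -1.54 from 2 to 6 h (adjusted p = 0.0354), the weakest result listed.

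In nucleotide supply, RRM2 differed by -4.66 from 2 to 24 h and -4.12 from 6 to 24 h, RRM1 by -2.50 and -2.61, and DUT by -2.19 and -1.54. For UHRF1 the differences were -5.53 and -5.11, and for DNMT1 -2.07 and -1.47. MSH6 differed by -3.02 and -1.87, and by -1.16 from 2 to 6 h (adjusted p = 0.0144 by edgeR).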

How the results depend on the processing

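At 24 h the members kept their direction under every alternative run, with 38 to 42 of 42 called lower in T>C reads and 40 to 42 in total reads. Leaving out 1 library gave 39 to 42 and 41 to 42. T>C scaling lost RFC3, RFC5, POLD3 and POLE2 at 24 h, and each time point alone left 39 called, with POLD3 and POLE2 not tested. Over all genes, T>C scaling gave 1513 lower and 759 higher at 24 h in place of 3148 and 219, and no TMM factors 1763 and 602.

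At 6 h no member was called lower in T>C reads, but 2 were after background subtraction, 1 with reads summed over transcripts and 1 with the replicate block, and 0 to 1 with a library left out (1 without replicate 3 of dCBP-30 or of DMSO at 6 h). The 2 members whose change was lower at 6 h than at 2 h became 0 with T>C scaling, 0 without TMM factors, 0 with summed reads and 1 after background subtraction, and 0 to 2 with a library left out (0 without replicate 1 of dCBP-30 at 2 or 6 h, 1 without replicate 1 or 2 of DMSO at 2 h or any DMSO replicate at 6 h). In total reads at 6 h, no TMM factors called 5 members higher (GINS4, ORC6, RFC2, RRM2 and UHRF1), and leaving out dCBP-30 replicate 1 called 2, GINS4 and UHRF1, and dCBP-30 replicate 2 or DMSO replicate 1 called 1, UHRF1. Background subtraction called MCM5 higher at 2 h beside UHRF1.

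Small changes turned sign. At 6 h, T>C scaling and no TMM factors gave 0.24 and 0.26 for MCM4, 0.14 and 0.14 for PCNA, and 0.30 and 0.31 for RRM1, which was 0.0094 by DESeq2 and 0.0047 with summed reads. DUT at 2 h was -0.013 with summed reads. With a library left out these ranged from -0.24 to 0.034 (MCM4), -0.33 to 0.045 (PCNA), -0.12 to 0.095 (RRM1) and -0.074 to 0.093 (DUT). The cause was not tested.

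Replicate numbers were not taken to pair the samples. Deviations of same-numbered libraries correlated at -0.29 to 0.10 over 9885 genes, and those of differently numbered libraries at -0.22 to 0.36. With 3 libraries per group these values cannot show whether samples were paired. The replicate block called 42 members lower at 24 h in T>C reads and 42 in total reads, 38 and 36 for the differences of 24 h from 2 h and 6 h, and 2 for that of 6 h from 2 h. It was not run between DMSO time points. Depth limits the low members: over the 3 dCBP-30 libraries at 24 h POLE2 had 0 T>C reads, RFC3 7, PRIM1 9, POLD3 15 and RFC5 18.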
